A study of Homo sapiens with 10 samples.

Results

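Sites at which peaks of all 4 profiled targets coincided were examined in HCT116, a human cell line grown from a colorectal carcinoma. A site was a peak of POLR1A, the catalytic subunit of RNA polymerase I, on chromosomes 1 to 22 or X that shared at least 1 bp with a peak of POLR2A, the catalytic subunit of RNA polymerase II, with a peak of the histone mark H3K4me3 and with a peak of the histone mark H3K9me3. Of 3812 POLR1A peaks, 247 met this rule, or 6.48% (exact 95% interval 5.72 to 7.31). All 4 lists chose the sites, so their overlaps and heights are given as description and carry no test.

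The study set the 2 polymerases beside their chromatin surroundings by CUT&Tag, in which an antibody brings the transposase pAG-Tn5 to its target so that nearby DNA is cut and tagged. The groups were POLR1A, POLR2A and H3K9me3 (3 samples each) and H3K4me3 (1 sample), all in unedited HCT116 cells with no treatment named in the labels, at 100000 to 200000 cells per replicate. Replicates were made on separate days, but each target had 1 peak list, and the lists of POLR1A, POLR2A and H3K9me3 name no replicate. So no value has an error between replicates, the read depth is unknown, and the intervals given here cover counting error only. The height of a peak is the authors' fold enrichment, a linear ratio of signal to expected background, read only within its own list.

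RNA polymerase I is known for making the ribosomal RNA precursor in the nucleolus, and RNA polymerase II makes messenger RNA precursors and most small nuclear RNAs. H3K4me3 marks the nucleosomes next to active gene starts. H3K9me3 marks heterochromatin, is bound by HP1 proteins, and is known at repeats near centromeres and telomeres, at zinc finger gene clusters and at one parental allele of imprinted genes, so it is seldom found on the same short stretch as H3K4me3.

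The promoter sequence under several of the sites is shown because gene starts were their most frequent position. The following 300-base RefSeq windows (GRCh38.p14, 250 bases before to 50 after the annotated start, 5′ to 3′ on the gene's strand) belong to the 5 sites of highest POLR1A fold enrichment among those within 1 kb of a protein-coding gene end in the gene table whose POLR1A summit lay inside such a window. Capitals mark matches on either strand to GGGCGG (the GC box bound by SP1), CCAAT (bound by NF-Y), CCGGAAG (an ETS site), TATAAA (the TATA box), CACGTG (an E-box), TGACG (the CRE half-site), CATGCGC (NRF1-type) and CGCGAGA, or to the telomere repeat unit TTAGGG, and matches on opposite strands can run together, as for TGACG in the ATP5MC1 window and CATGCGC in the TFB1M window.
MTMR4, a phosphoinositide phosphatase gene, chr17:58517831-58518130, minus strand: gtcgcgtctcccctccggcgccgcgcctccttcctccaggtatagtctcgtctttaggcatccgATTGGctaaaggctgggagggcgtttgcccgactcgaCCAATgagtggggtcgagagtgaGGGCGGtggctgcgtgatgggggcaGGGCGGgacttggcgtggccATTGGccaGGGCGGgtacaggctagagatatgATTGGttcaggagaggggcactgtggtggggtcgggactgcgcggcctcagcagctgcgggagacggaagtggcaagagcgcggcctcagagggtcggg
TFB1M, a mitochondrial ribosomal RNA methyltransferase gene, chr6:155314435-155314734, minus strand: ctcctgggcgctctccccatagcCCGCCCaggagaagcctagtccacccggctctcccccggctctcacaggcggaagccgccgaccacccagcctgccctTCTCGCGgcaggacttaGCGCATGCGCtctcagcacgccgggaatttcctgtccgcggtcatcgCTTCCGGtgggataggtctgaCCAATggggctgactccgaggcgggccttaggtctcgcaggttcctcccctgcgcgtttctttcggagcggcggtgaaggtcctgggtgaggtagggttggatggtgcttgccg
MBTD1, a histone-reader gene of the TIP60 acetyltransferase complex, chr17:51260000-51260299, minus strand: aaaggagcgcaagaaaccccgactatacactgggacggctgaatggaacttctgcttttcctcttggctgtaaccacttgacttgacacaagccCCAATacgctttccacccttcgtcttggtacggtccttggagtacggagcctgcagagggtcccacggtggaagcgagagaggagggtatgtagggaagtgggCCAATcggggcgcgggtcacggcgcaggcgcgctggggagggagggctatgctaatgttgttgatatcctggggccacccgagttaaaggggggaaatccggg
PRR11, a gene linked to cell cycle progression, chr17:59155496-59155795, plus strand: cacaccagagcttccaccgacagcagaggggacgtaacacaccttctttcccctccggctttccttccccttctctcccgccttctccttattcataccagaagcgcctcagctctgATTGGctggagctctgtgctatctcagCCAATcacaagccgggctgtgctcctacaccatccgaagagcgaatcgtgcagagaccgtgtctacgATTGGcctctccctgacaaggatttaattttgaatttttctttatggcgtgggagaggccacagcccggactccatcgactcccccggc
ATP5MC1, an ATP synthase membrane subunit gene, chr17:48892537-48892836, plus strand: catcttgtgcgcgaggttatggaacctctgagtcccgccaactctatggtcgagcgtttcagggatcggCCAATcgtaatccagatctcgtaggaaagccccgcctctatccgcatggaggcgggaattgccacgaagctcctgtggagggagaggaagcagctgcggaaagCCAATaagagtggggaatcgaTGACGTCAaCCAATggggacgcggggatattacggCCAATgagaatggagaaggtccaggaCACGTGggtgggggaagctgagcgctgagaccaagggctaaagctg

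None of the 5 windows held TATAAA, and each held CCAAT on one strand or the other: 4 matches for MTMR4, 1 for TFB1M, 2 for MBTD1, 3 for PRR11 and 4 for ATP5MC1. In the MTMR4 window 3 GC boxes stood between the CCAAT matches, while the MBTD1, PRR11 and ATP5MC1 windows held no GGGCGG. GC content was 66% for MTMR4, 66.7% for TFB1M, 58.3% for MBTD1, 55.7% for PRR11 and 57.0% for ATP5MC1. Distances here are from the start that the printed window uses. The POLR1A summit lay upstream of it in each, from 131 bp for MTMR4 to 246 bp for PRR11. In the gene table MTMR4 and MBTD1, on the minus strand, begin further out, at 58519047 and 51260958. By that table both of their POLR1A peaks lie inside the gene. At MBTD1, whose start faces that of UTP18, the POLR1A and H3K9me3 summits were nearly superimposed, 229 and 232 bp upstream, and the fold enrichments were 11.3 for POLR1A, 24.7 for POLR2A, 12.2 for H3K4me3 and 10.1 for H3K9me3. At ATP5MC1 the same 4 values were 11.2, 24.9, 13.1 and 5.02, and the H3K9me3 summit lay 132 bp upstream of the start. At MTMR4 the H3K9me3 summit lay 571 bp upstream, outside the printed window, in a peak of 4.83-fold.

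The sites were taller in POLR1A than the POLR1A peaks that met POLR2A and H3K4me3 without H3K9me3. Their median POLR1A fold enrichment was 7.85 (interquartile range 5.90 to 10.5), against 6.0 (5.01 to 7.38) over those 2097 peaks and 5.44 over the whole list. The median width was 437 bp at the sites and 297 bp at the 2097 peaks. The companion POLR2A peak was likewise taller and wider at the sites, with medians of 14.6-fold and 578 bp, against 12.1-fold and 450 bp. The companion H3K4me3 peak was not, with medians of 10.5-fold and 1093 bp at the sites and 10.5-fold and 1147 bp at the 2097 peaks. Tall and wide POLR1A peaks were not particular to the sites. At the 124 POLR1A peaks with POLR2A and H3K9me3 but no H3K4me3 the POLR1A medians were 7.61-fold (5.50 to 11.5) and 404.5 bp. The POLR2A medians of those 124 were lower than at the sites, 5.60-fold and 289.5 bp.

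The other POLR1A peaks that met H3K9me3 were seldom at protein-coding gene ends. H3K9me3 touched 595 POLR1A peaks in all (15.6%): besides the 247 sites, 218 met H3K9me3 alone, 124 met H3K9me3 and POLR2A, and 6 met H3K9me3 and H3K4me3. A protein-coding gene end lay within 1 kb of 127 of the 247 sites (51.4%, 45.0 to 57.8), against 2 of the 124 and 1 of the 218. The 124 and the 218 lack an H3K4me3 peak by definition. Among POLR1A peaks with H3K4me3 and neither POLR2A nor H3K9me3 the share was 50.9% (81 of 159), much as at the sites. Among the 2097 peaks without H3K9me3 the share was higher, 71.0% (69.0 to 72.9). Gene bodies held 40 of the 124 (32.3%) and 56 of the 218 (25.7%), and most of the rest of both classes lay between genes. Of the 66 sites with a −log10 q of at least 5 in every list, as the authors deposited it, 22.7% were at protein-coding gene ends.

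By position, 35 further sites (14.2%) lay at the end of another kind of gene, 51 (20.6%) in a gene body and 34 (13.8%) between genes, against 8.06%, 15.5% and 5.53% of the 2097 peaks. An annotated 5′ end lay within 1 kb of 137 sites (55.5%), and 61 sites (24.7%) lay beside starts on both strands, against 69.1% and 23.9% of the 2097. No site lay at a 3′ end without a 5′ end (0 of 247, exact upper bound 1.48%), against 34 of the 2097 (1.62%). Chromosome margins, here taken as the 2 Mb at either end of the annotated genes of a chromosome and its longest gene-free interval with 2 Mb on either side, held 33 sites at chromosome ends and 17 at gene-free intervals. Together the margins held 20.2% of the sites. Chromosome ends held 13.4% of the sites and 7.58% of the 2097 peaks, and gene-free intervals 6.88% of the sites and 1.43% of the 2097. Over all 3812 POLR1A peaks the shares were 10.4% and 5.93%, both inside the intervals of the sites' shares (9.38 to 18.2 and 4.06 to 10.8), and among the 124 peaks with POLR2A and H3K9me3 they were 30.6% and 23.4%.

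The 247 sites therefore fell into 3 groups by position: 122 at interior protein-coding gene ends, 75 elsewhere in chromosome interiors and 50 in the margins. POLR1A fold enrichment had a median of 7.46 at the gene ends (3.40 to 13.9), 7.65 at the other interior sites (3.34 to 27.0) and 11.5 in the margins (3.64 to 40.0). POLR2A differed little between them, at medians of 15.1, 14.1 and 14.1. H3K4me3 was lowest in the margins, at medians of 11.1 for gene ends, 9.21 for other interior sites and 7.31 for margins, and H3K9me3 ran the other way, at 4.91, 5.28 and 8.88. The ranges of the 3 groups overlapped for every target.

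**Figure D1:**
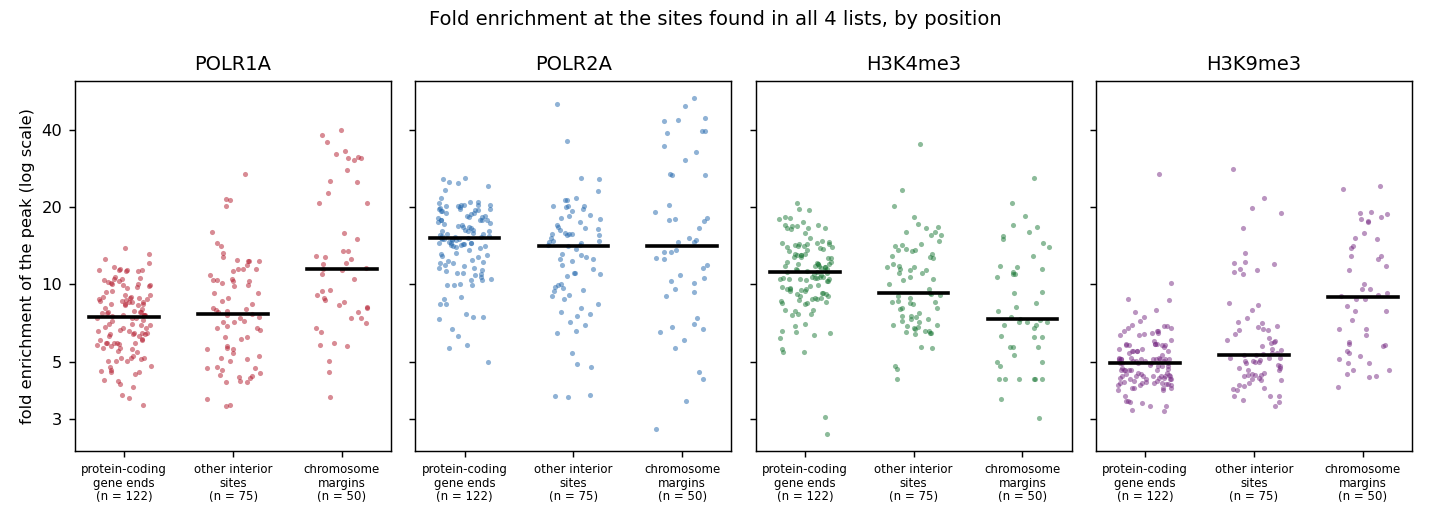
Each point is the fold enrichment (log scale) of 1 target's peak at 1 of the 247 sites, split into 122 at interior protein-coding gene ends, 75 at other interior places and 50 in the margins of chromosomes (within 2 Mb of the outermost genes or of the longest gene-free interval), with a black bar at the median. The margin points reach 40.0 in POLR1A and 53.1 in POLR2A, while most H3K9me3 points at gene ends lie near the median of 4.91.

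The strength of the H3K9me3 call separated the 3 groups more than the other targets did. A −log10 q of at least 5, as the authors deposited it, was reached by the H3K9me3 peak at 23 of 122 gene ends (18.9%), 32 of 75 other interior sites (42.7%) and 37 of 50 margin sites (74%). Over all sites this was 92 of 247 (37.2%), against 24.2% of the whole H3K9me3 list. For POLR2A 95.5% of the sites reached it, against 48.0% of that list, and for POLR1A 72.9%, against 38.0%. All 4 peaks reached it at 66 sites, 15 at gene ends, 27 at other interior places and 24 in margins. Many weak H3K9me3 peaks had identical heights: 107 of the 247 sites carried a fold enrichment that another site also carried, and 4.40 alone occurred at 8 sites. How many reads lay behind such peaks cannot be read from the lists.

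The 4 peaks were mostly centred on one another but differed in extent. The median distance from the POLR1A summit was 40 bp to the POLR2A summit, 89 bp to the H3K9me3 summit and 160 bp to the H3K4me3 summit. At 239 sites all 4 peaks shared at least 1 base, and at the other 8 the pairs overlapped at different places. The median stretch common to the 4 peaks was 301 bp. At the narrowest, the shared length was 1 bp near LINC00974 (chr17:41548015-41548316), 8 bp at ATOSB (chr9:35116760-35117051) and 16 bp at HEXIM2-AS1 (chr17:45161658-45161856). Just outside the rule stood the POLR1A peaks at GORAB, TMED1 and LTAP1/UBAP2L, which missed an H3K9me3 peak by 1, 23 and 26 bp.

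At gene ends H3K9me3 was a narrow peak inside a broad H3K4me3 peak. The median width there was 398 bp for H3K9me3 and 1500 bp for H3K4me3, and the H3K9me3 peak lay wholly inside the H3K4me3 peak at 109 of 122 sites (89.3%), against 34 of 75 other interior sites (45.3%) and 9 of 50 margin sites (18%). At 500 bp upstream of the POLR1A summit on the chromosome H3K4me3 still covered 73.0% of the gene-end sites, while H3K9me3 covered 7.38%. In the margins the order was turned round, with H3K9me3 on 40% of the sites at that distance and H3K4me3 on 12%. Median widths there were 648 bp for H3K9me3 and 520 bp for H3K4me3, with 714.5 bp for POLR1A and 649.5 bp for POLR2A. At 20 of the 50 margin sites (40%) the POLR1A peak had a start or an end at exactly the same base as another target's peak.

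**Figure D2:**
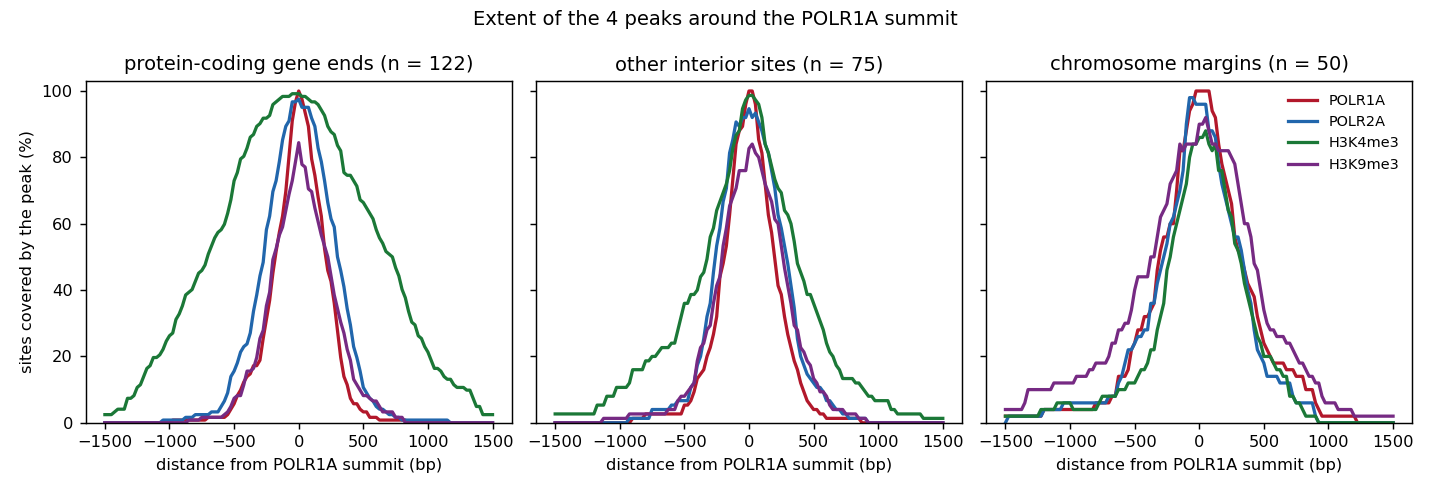
The curves give the share of sites (%) that the peak of each target covers at each distance (bp, along the chromosome) from the POLR1A summit, for 122 interior protein-coding gene ends, 75 other interior sites and 50 margin sites. At gene ends the H3K4me3 curve is far wider than the H3K9me3 curve, and in the margins the H3K9me3 curve is the widest.

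Most H3K9me3 peaks at the sites, as over the whole H3K9me3 list, had no other H3K9me3 peak within 10 kb. Another H3K9me3 peak lay within 10 kb for 35 of the 247 sites' H3K9me3 peaks (14.2%, 10.1 to 19.2) and for 16 of the 196 in chromosome interiors (8.16%, 4.74 to 12.9). At POLR1A peaks with H3K9me3 and neither POLR2A nor H3K4me3 the share was 55.6% (48.5 to 62.4), and over the H3K9me3 list 21.7%. Both of these shares include margins, so the interior share has no like comparison here. The median distance to the next H3K9me3 peak was 58441 bp at the sites, against 7735 bp at those POLR1A peaks and 34062 bp over the list.

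Seen from the H3K4me3 list, 406 peaks met H3K9me3, and they held the polymerases far more often than the rest. From the side of H3K9me3 these meetings are rare, since 2.47% of its 16414 peaks met H3K4me3. POLR1A was present at 257 of the 406 (63.3%, 58.4 to 68), against 2244 of the 16775 H3K4me3 peaks without H3K9me3 (13.4%, 12.9 to 13.9). POLR2A was present at 369 of the 406 (90.9%) and at 54.8% of the rest. At a −log10 q of at least 5 in every list POLR1A was present at 62.6% with H3K9me3 and 6.87% without, and with each list cut to the length of the POLR1A list at 61.4% and 18.7%. With all peaks, both polymerases were present at 249 of the 406 (61.3%), against 12.7% of the rest and 13.8% of all H3K4me3 peaks.

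The share with POLR1A was higher with H3K9me3 than without in each group by POLR2A height. H3K4me3 peaks with POLR2A were split into 4 groups of equal size by its fold enrichment. POLR1A was present at 24.5% of those with H3K9me3 and 7.10% of those without in the lowest group, at 42.6% and 12.4% in group 2, at 61.1% and 23.8% in group 3, and at 87.3% (172 of 197, 81.8 to 91.6) and 50.9% (1116 of 2194, 48.8 to 52.98) in the highest. Where no POLR2A peak was listed, the shares were 21.6% (8 of 37, 9.83 to 38.2) and 1.58%. The share of H3K4me3 peaks that met H3K9me3 was itself 8.24% in the highest POLR2A group and 0.486% where POLR2A was not listed. Because taller peaks are found more readily in every list, and read depth is unknown, the part of peak height in these shares was not tested beyond this split. The highest group ran from 11.7 to 53.1-fold, so heights were not matched within it, and H3K4me3 peak width was not held. The shares use the same overlaps that chose the sites and carry no test.

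**Figure D3:**
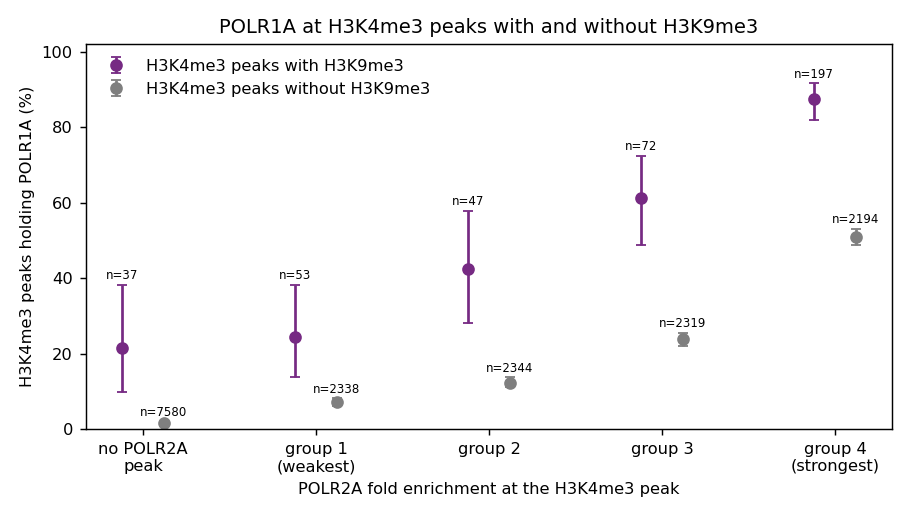
Points give the share (%) of H3K4me3 peaks that hold a POLR1A peak, with H3K9me3 (purple) and without it (grey), where no POLR2A peak is listed and in 4 groups of equal size by POLR2A fold enrichment, with exact 95% intervals for counting error and the number of peaks above each. The purple share is the higher in all 5 groups, 87.3% against 50.9% in the highest group.

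Read the other way, among interior POLR1A peaks with POLR2A and H3K4me3 the share that met H3K9me3 increased with polymerase height and not with H3K4me3 height. In 4 groups of equal size from low to high POLR1A fold enrichment it was 5.51%, 5.83%, 7.26% and 18.8%, and by POLR2A 5.70%, 7.03%, 10.5% and 14.2%. By H3K4me3 it was 8.75%, 9.51%, 9.32% and 9.87%, with intervals that overlapped throughout. Within the sites the Spearman rank correlation of the heights was 0.62 between POLR1A and POLR2A, 0.50 between POLR1A and H3K9me3, 0.23 between POLR2A and H3K9me3, −0.11 between POLR1A and H3K4me3 and −0.098 between H3K4me3 and H3K9me3 over 247 sites. In the 50 margin sites the rank correlation was 0.81 for POLR1A with POLR2A and 0.75 for POLR1A with H3K9me3, and in the 197 interior sites 0.63 and 0.36. These are descriptions across sites that share a cell line, an assay and peaks picked by overlap.

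The tallest sites lay at chromosome margins. Of the 20 tallest POLR1A peaks of the whole list, 9 met all 4 lists, and all 9 were in margins. Of the top 100, 31 met all 4 lists and 21 of these were in margins. The highest was chr22:50807876-50808489, 8238 bp from the pseudogene RPL23AP82, with 40.0-fold for POLR1A, 53.1 for POLR2A (the highest of its list), 16.6 for H3K4me3 and 24.1 for H3K9me3. The next was chr17:22521207-22521750 beside MTCYBP13, a nuclear pseudogene of mitochondrial cytochrome b in the gene-free interval of chromosome 17, with 38.0, 49.6, 26.0 and 23.5-fold in the same order of targets. Because it stands beside a copy of mitochondrial sequence and the placing of repeated reads is not given, the origin of its signal is uncertain.

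Of these sites, 3 began exactly where the assembled chromosome begins, behind the unsequenced telomere cap. The POLR1A peaks at chr12:10001-10686 near DDX11L8, at chr18:10001-10720 by the noncoding RNA gene LINC02564 and at chr3:10001-10844 by LINC01986 all start at base 10001. Their POLR1A fold enrichments were 35.9, 31.3 and 30.5, those of POLR2A 43.7, 38.9 and 43.3, those of H3K9me3 17.96, 17.4 and 18.7, and those of H3K4me3 4.28, 7.13 and 13.9. Over the 10 tallest sites at chromosome ends the H3K9me3 fold enrichment ranged from 9.01 to 24.1 and stood at the median percentile 99.8 of its list, while H3K4me3 stood at the median percentile 60.3. An interior relative was DDX11L2 on chromosome 2 (chr2:113602929-113603576), at the known head-to-head fusion of 2 ancestral chromosome ends, with 27.0-fold for POLR1A, 25.9 for POLR2A, 18.2 for H3K4me3 and 11.2 for H3K9me3. Chromosome ends share similar sequence, the placing of their reads is not given in the sources used here, so the chromosome of each of these peaks is uncertain.

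At the 20 tallest protein-coding gene ends, the H3K9me3 peak was low at 18 and high at 2. POLR1A ranged there from 10.3 to 13.9-fold (median 11.4), POLR2A from 7.46 to 25.6 (18.6) and H3K4me3 from 3.03 to 17.95 (10.96). H3K9me3 lay between 3.88 and 6.46 at 18 of them. SRGAP2, a gene of neuronal migration with near-identical human copies, was the tallest in POLR1A, at 13.9-fold, with 25.6 for POLR2A, 13.9 for H3K4me3 and 4.91 for H3K9me3. Of the 20, 6 lay on chromosome 17, 4 on chromosome 16 and 4 on chromosome 19.

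The genes of the 20 sites are known for different tasks. Mitochondrial genes among them were TFB1M (11.4-fold for POLR1A, 18.9 for POLR2A, 17.95 for H3K4me3, 5.50 for H3K9me3), ATP5MC1 and the protein import channel gene TOMM40 (10.7, 20.0, 7.58 and 4.12). The site of WBP1L (10.6, 14.4, 16.99 and 4.08) had its POLR1A summit inside a promoter window of that gene. It also lay within 1 kb of the end at 102743492 of the mitochondrial carrier gene SFXN2, where either end of a gene was counted. Genes of RNA handling were CASC3, of the exon junction complex (11.4, 19.5, 12.7 and 5.39), and ZC3H4, which restrains non-coding transcription (11.5, 20.4, 10.96 and 3.96). Genes of chromosome maintenance were SWSAP1, of homologous recombination (12.1, 20.9, 16.98 and 5.82), and the facing pairs VPS35/ORC6, with the origin recognition subunit ORC6 (12.1, 18.1, 10.96 and 4.40), and SKA2/PRR11, with the spindle attachment factor SKA2 (11.3, 15.4, 9.77 and 5.82). The pair PDCD10/SERPINI1 had 11.3, 18.04, 9.94 and 4.62-fold in the same order. The others were MTMR4, MBTD1/UTP18, TMEM216, FAM86B2, PRDM7, WBP2, FBRS, KLHL26 and KDM8, with POLR1A at 10.3 to 13.1-fold.

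H3K9me3 was high at TMEM216 and, at 10.1-fold, at the MBTD1/UTP18 site. TMEM216 is a gene of the ciliary transition zone. Its site (chr11:61391246-61391851) had 12.6-fold for POLR1A and 26.8 for H3K9me3, with 7.46 for POLR2A and only 3.03 for H3K4me3, which lay at percentile 2.11 of its list. The H3K9me3 peak was 701 bp wide and the H3K4me3 peak 248 bp, the reverse order of the medians at interior gene ends.

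Sites inside gene bodies were led by COL23A1, which encodes a transmembrane collagen, with 21.3-fold for POLR1A, 19.6 for POLR2A, 12.9 for H3K4me3 and 21.6 for H3K9me3 (chr5:178585486-178585771). All 4 peaks there were compact, between 215 and 345 bp, with POLR2A, H3K4me3 and H3K9me3 summits within 42 bp of that of POLR1A. SERINC2, a serine incorporator gene, had 14.0, 18.5, 11.7 and 16.5-fold in the same order, and TMEM242 had 14.4, 21.6, 11.3 and 12.03. The highest H3K9me3 of any site was in ACSL3, a fatty acid activation gene (chr2:222866209-222866898), at 28.0-fold, with 10.3 for POLR1A, 5.38 for POLR2A and 11.7 for H3K4me3. FAM157A (20.7-fold for POLR1A), SLC38A8 (16.0), LOC105375805 (13.4), ATP9B (12.7) and DKKL1 (12.7) completed the 8 tallest. Gene body here means away from the outer ends in the gene table. The POLR1A summit at DKKL1 lay inside a promoter window of that gene. Of the 75 other interior sites, 17 lay within 1 kb of a start used by the promoter windows. Between genes, the site 13403 bp from ACO2P2 on chromosome 1 (chr1:236097111-236097416) had 21.5-fold for POLR1A, 36.1 for POLR2A, 9.99 for H3K4me3 and 19.8 for H3K9me3, and a site 38265 bp from SOX8 had 24.95, 17.9, 20.7 and 15.8.

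A block of small nuclear RNA genes on chromosome 17 held 3 sites within 37.5 kb. Small nuclear RNAs form the core of the spliceosome, and most are made by RNA polymerase II. LOC124904137 (chr17:43246452-43246743) carried the tallest H3K4me3 peak of the whole list, at 35.0-fold, with 12.3 for POLR1A, 16.4 for POLR2A and 18.9 for H3K9me3. LOC124904138 (chr17:43251535-43251839) had 20.1-fold for POLR1A, 50.1 for POLR2A, 13.6 for H3K4me3 and 13.3 for H3K9me3, and LOC124904142 had 8.36, 23.1, 6.42 and 11.3 in the same order. At all 3 the H3K9me3 summit was within 10 bp of the POLR1A summit. Of 149 genes annotated as small nuclear RNA, 4 had a site, the fourth being RNVU1-7 with 3.34, 14.8, 11.1 and 4.91-fold, and 19 had any POLR1A peak. Over all genes other than protein-coding, 919 of 38598 had any POLR1A peak. Of the 1843 genes on the list of spliceosomal small nuclear RNA genes by name, which includes pseudogenes, RNVU1-7 alone had a site (0.0543%), against 0.192% of all genes other than protein-coding. These genes are repeated in near-identical copies, so the copy that gave the reads is uncertain. Genes annotated as ribosomal RNA had no site (0 of 29), and 3 had a POLR1A peak.

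The FAM86 family, a protein lysine methyltransferase gene with many duplicated copies and pseudogenes, recurred among the sites. Of 15 genes with that name, 7 lay at 6 sites on chromosomes 3, 4, 8 and 11, and 10 had any POLR1A peak. The 7 include FAM86B2-DT, a noncoding RNA gene that shares the FAM86B2 site and is not a copy of the methyltransferase gene. The background of sites was 0.923% of protein-coding genes and 0.192% of other genes, and the family was picked after its values were seen. For any POLR1A peak the background was 11.2% of protein-coding genes and 919 of 38598 other genes. The 6 sites were alike, with POLR1A at 10.1 to 13.1-fold (median 11.5), POLR2A at 15.6 to 21.2, H3K4me3 at 6.55 to 10.3 and H3K9me3 at 4.44 to 7.96. The copies are similar in sequence and the sites may not be independent. Of 465 nuclear pseudogenes of mitochondrial genes, MTCYBP13 alone had a site, while 34 had a POLR1A peak. Their share with a site is near the 0.192% of all genes other than protein-coding.

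Chromosomes contributed unequally. Chromosome 19 held 36 sites (9.92% of its POLR1A peaks, 7.04 to 13.5) and chromosome 17 held 29 (10.8%, 7.37 to 15.2), against 17 on chromosome 1 (4.58%, 2.69 to 7.24). Without margins chromosome 17 had the highest share, 26 of 205 peaks (12.7%), and chromosome 19 had 29 of 315 (9.21%). Interior sites were scarce on chromosomes 20 (1 of 83), 22 (1 of 76) and X (0 of 44). The sites were spread out, since joining those within 10 kb left 241 loci, with 12 sites in 6 pairs. One such pair, at LPXN and ZFP91 on chromosome 11, shared its H3K4me3 and H3K9me3 peaks.

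Among protein-coding genes 183 of 19821 had a site at an end (0.923%), and 11.2% had any POLR1A peak there. Of other genes 0.192% had a site, or 74 of 38598. Of 85 spliceosome and HNRNP protein genes 6 had one (7.06%, 2.63 to 14.7), the highest share of the 24 gene lists counted: SF3B6 (10.1-fold for POLR1A), HNRNPA1 (7.42), SNRPD2 (6.98), U2AF2 (5.49), SRSF1 (4.25) and SNRPG (3.40). These encode splicing factors of U2 recognition, core small nuclear ribonucleoprotein proteins, an SR protein and an RNA-packaging protein, and 30 of the 85 had any POLR1A peak. HNRNPA1 shared its site with CBX5, which encodes the H3K9me3 reader HP1-alpha and was the 1 of 26 genes of the H3K9me3 machinery with a site.

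Zinc finger genes, whose clusters are known H3K9me3 domains, were near the background. On chromosome 19, 4 of 265 had a site (1.51%, 0.413 to 3.82): ZNF146 (6.75-fold for POLR1A), ZNF700 (5.28), ZNF91 (5.02) and ZNF699 (4.78). On other chromosomes 4 of 304 had one (ZFP91, ZNF165, ZNF512B and ZNF680), the ZNF680 site standing out for H3K4me3 at 20.7-fold. Cytosolic ribosomal protein genes had 2 of 86, RPS27A (8.84) and RPL7 (7.81), and mitochondrial ribosomal protein genes 1 of 77, MRPL54 (6.58). Single sites were at UTP18 of ribosome biogenesis (1 of 54), the Mediator subunit gene MED11 (9.63, 1 of 73), the p53 target TP53I3 (10.1, 1 of 26) and EIF2AK3, an eIF2-alpha kinase gene (8.39, 1 of 69 on the translation factor list). The TP53I3 site is the same peak as that of SF3B6, and a promoter window of FAM228B lay under it. It lay by the end of TP53I3 at 24077433. The counts take either end of a gene, so a site in them need not lie at the gene's start.

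Several lists had no site. At a background of 0.923% of protein-coding genes and 0.192% of other genes, lists of this size would hold few. For heat shock and folding genes it was 0 of 89 (exact upper bound 4.06%), with a POLR1A peak at 30, for replication-dependent histone genes 0 of 63 with 16, for cell cycle genes 0 of 60 with 13, and for RNA polymerase I and III genes 0 of 36 with 10. Transfer RNA genes had 0 of 508 with 41, and snoRNA genes 0 of 573 with 13, for which the background of sites is the 0.192%. The background of any POLR1A peak was 11.2% of protein-coding genes and 919 of 38598 other genes. Imprinted genes (0 of 45), olfactory receptor genes (0 of 389), clustered protocadherin genes (0 of 53) and HOX genes (0 of 39) had neither a site nor a POLR1A peak at an end. The germline list had 0 of 99 with 2. Long noncoding genes named LINC had 7 of 2305 (0.304%, against 0.192%), led by LINC02564 and LINC01986. Families of near-identical copies, which mix protein-coding and other genes, had 11 of 535 (2.06%).

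At the gene starts themselves, most polymerase and H3K9me3 summits lay upstream of the start, and H3K4me3 summits lay on both sides of it. Over 125 interior sites with an annotated start within 1 kb, the median summit position was −126 bp for POLR1A (95% interval −165 to −99), −161 bp for POLR2A, −132 bp for H3K9me3 (−213 to −82) and −10 bp for H3K4me3 (−45 to 32), negative being upstream. At 1334 interior peaks without H3K9me3 the medians were −87 bp for POLR1A (−96 to −79), −99 bp for POLR2A and 32 bp for H3K4me3. At the 125 sites the H3K4me3 quartiles were −140 and 153 bp, and 48% of these summits lay downstream. For H3K9me3 24% of summits lay downstream and 56% within 250 bp. At sites with starts on both strands the H3K9me3 median was −85.5 bp (58 sites), and at sites with starts on 1 strand it was −210 bp (67 sites). With starts on both strands the sign depends on which start is taken.

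**Figure D4:**
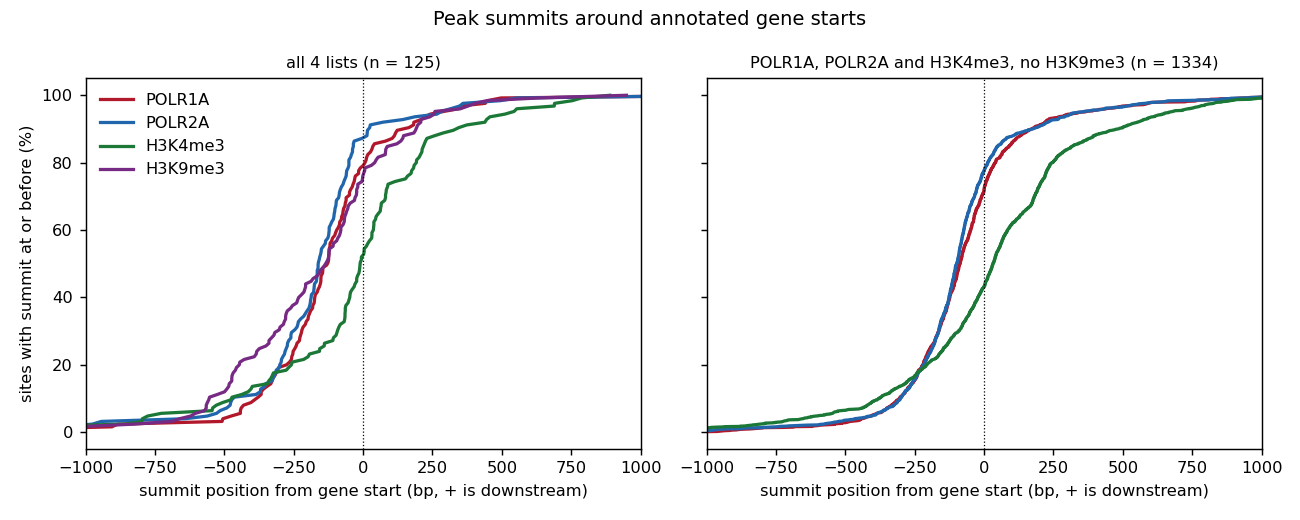
Each curve gives the share of sites (%) whose peak summit lies at or before each position (bp) from the nearest annotated gene start, positive downstream, at 125 interior sites in all 4 lists (left) and at 1334 interior POLR1A peaks with POLR2A and H3K4me3 and no H3K9me3 (right). At the 125 sites the H3K9me3 curve crosses 50% at −132 bp, near POLR1A, and the H3K4me3 curve at −10 bp.

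Promoter windows under the sites were less GC-rich than those of comparable peaks. A RefSeq window was found for 15812 of 19821 protein-coding genes, and 185 windows lay under 115 of the 197 interior sites. Their median GC content was 60.7%, against 64.3% for 1795 windows under POLR1A peaks with POLR2A and H3K4me3 only, 66.3% for 5931 windows with POLR2A and H3K4me3 but neither POLR1A nor H3K9me3, and 58.7% for all 34789 windows. The ratio of observed to expected CpG was 0.811, against 0.842, 0.867 and 0.578 in the same order.

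Motif shares differed from those of the other window classes for some motifs. The GC box GGGCGG was found in 67.0% (59.7 to 73.7) of the 185 windows, against 78.1% of the 1795, 74.9% of the 5931 and 44.9% of all windows. CCAAT was found in 54.6% (47.1 to 61.9), against 51.4%, 37.7% and 34.6%. At least 2 CCAAT matches stood in 35.1% (28.3 to 42.5), against 26.1%, 14.9% and 10.7%, as in the MTMR4, MBTD1, PRR11 and ATP5MC1 windows shown above. CCGGAAG was found in 24.9%, against 21.2%, 23.8% and 10.2%, and TATAAA in 3.78%, against 3.73%, 4.05% and 11.6%. Windows of facing genes overlap, so they are not independent, and a match is a string of letters in the window and not a bound site.

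**Figure D5:**
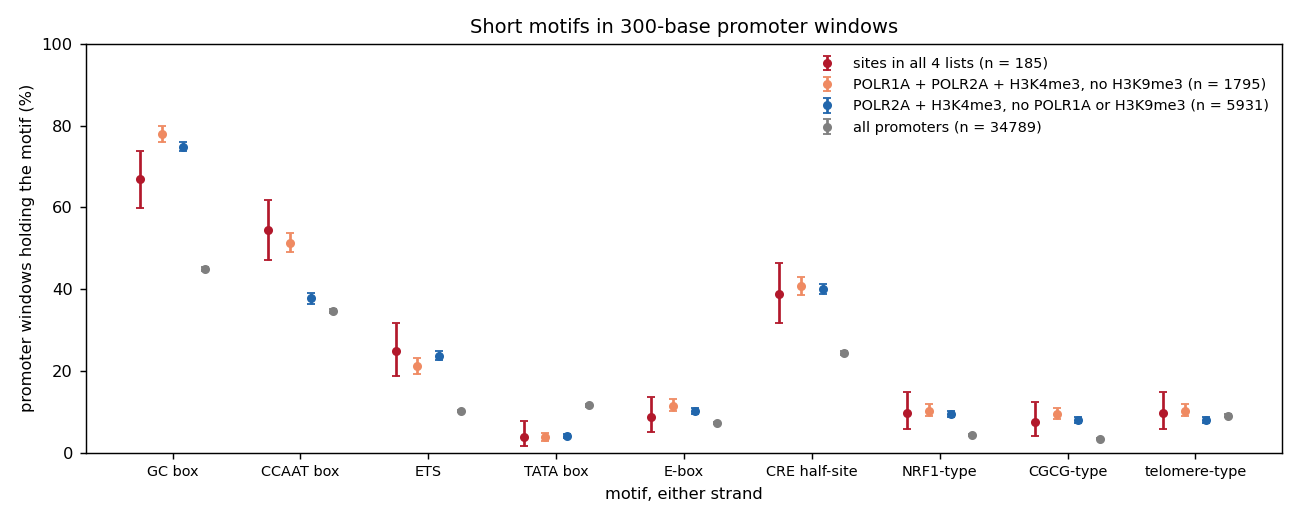
Points give the share (%) of 300-base promoter windows that hold each of 9 short motifs on either strand, with exact 95% intervals for counting error, for 185 windows under the interior sites, 1795 under POLR1A peaks without H3K9me3, 5931 with POLR2A and H3K4me3 and neither POLR1A nor H3K9me3, and all 34789 windows. CCAAT stands at 54.6% for the sites and 37.7% for the windows without POLR1A or H3K9me3, and the GC box at 67.0% and 74.9%.

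Among cell type markers, H3K4me3 peaks lay at 11 of 22 intestinal epithelial genes, among them EPCAM, CDH1, CDX2, KRT8, KRT18 and HNF4A, and were absent from VIL1, LGR5, MUC2 and KRT20. They lay at 2 of 12 fibroblast, 2 of 12 leukocyte, 2 of 10 neuron and 2 of 10 liver markers. The share of all protein-coding genes with an H3K4me3 peak was not counted, so these counts alone do not check the cell line. No marker gene of any list had a site in all 4 lists, at a background of 0.923% of protein-coding genes.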

How the data were processed

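CUT&Tag was measured in 10 HCT116 samples, and 4 peak lists, 1 per target, were used. The deposited lists hold, per the authors, a score, a fold enrichment (a linear ratio) and −log10 p and q values for each peak, and the lowest −log10 q of every list lay just above 1. The lists are named as MACS2 peaks. With which settings they were called, against which control, from pooled or single replicates and with which handling of repeats is not given in the sources used here. FastQC 0.12.0, STAR, SAMtools 1.6 and deepTools 3.1.1 are among the tools in the submitters' processing notes, and the build is GRCh38 (hg38).

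Peaks on chromosomes 1 to 22 and X were intersected at 1 bp or more with Python 3.11.15, pandas 2.3.3, NumPy 2.4.6 and SciPy 1.17.1, and the overlap code was checked on simulated peaks. Where several peaks met a site, the tallest was used. Genes came from a RefSeq GRCh38.p14 table (58419 used of 59792; it has no exons, and 679 on scaffolds or patches were left out), and gene ends were counted within 1 kb. Intervals of shares are exact Clopper-Pearson 95%. Alternatives were −log10 q minima of 2 and 5, lists of equal length, larger overlaps, windows of 500 bp and 2 kb, and margins left out. The genes named were the tallest by POLR1A in each position class (20 at protein-coding gene ends, 8 in gene bodies, 6 between genes), the 6 tallest in each other target, up to 4 per gene list and the 3 nearest the rule on either side. Other features, such as the snRNA block, FAM86, the remaining splicing genes and the sites at base 10001, were chosen after their values were seen. The sites and gene lists were chosen with earlier results of these data known, and no test was made.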

Additional observations from a re-analysis of the deposited data

Results flagged for a closer look

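Outside chromosomes 1 to 22 and X, which the comparisons did not use, 18 of 310 POLR1A peaks met all 4 lists (5.81%, exact 95% interval 3.48 to 9.02), and peaks there were not otherwise examined. The share over chromosomes 1 to 22 and X, 6.48%, lies inside that interval. There was 1 such peak on chromosome Y and 4 on the mitochondrial genome, and the 18 lay on 13 contigs in all. Their POLR1A fold enrichment had a median of 12.7 and a highest value of 41.5, against 7.85 and 40.0 at the 247 sites.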

How the results depend on the processing

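Of 247 sites, 216 were found at a −log10 q of at least 2 in every list, 186 when each other peak covered at least 50% of the POLR1A peak, 196 with the POLR1A summit inside each other peak and 197 without margins. With 5 as the −log10 q minimum 66 were found, and with each list cut to the length of the POLR1A list it was 21. Under those stricter settings fewer sites were at protein-coding gene ends, 22.7% at a −log10 q of 5 and 38.1% with equal lengths, against 51.4%, and more were in margins, 36.4% and 33.3%, against 20.2%. These position shares under both settings were added after seeing the data. Without margins the gene-end share was 61.9%. The median distance from the POLR1A to the H3K9me3 summit was 31.5 bp at a −log10 q of 5, against 89 bp. POLR1A at H3K4me3 peaks with H3K9me3 lay between 60.5% and 65.2% in the 4 alternatives run, while the share without H3K9me3 (13.4%) lay between 6.87% and 18.7%. No paired analysis was possible because the peak lists carry no replicate, and for the same reason no replicate could be left out.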
